A study of Mus musculus with 16 samples.

Results

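The genes described here are 10 genes of the embryonic surface ectoderm and its keratins, chosen by name among the 56748 genes of the expression table. They are the transcription factors Trp63, Tfap2a, Grhl2 and Grhl3, the splicing factor Esrp1, the keratins of stratified epithelium Krt5 and Krt14, and the keratins of simple epithelium Krt8, Krt18 and Krt19. Libraries were made from RNA of the trunk or the caudal part of mouse embryos at E11.5. Embryos were Ednrb+/+ (called WT here) or Ednrb-/-, the latter lacking a working endothelin receptor B, which neural-crest-derived pigment cell precursors need. There were 4 groups of 4 libraries: WT trunk, Ednrb-/- trunk, WT caudal and Ednrb-/- caudal. The sources used here do not state the strain, how the null allele was made, which embryo each piece came from or whether embryos were pooled. The labels call the 4 libraries of a group biological replicates without naming embryos, so the p-values measure the spread between these libraries. Whole pieces of embryo were sequenced, so fewer cells of a type and less RNA per cell cannot be told apart.

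At this stage the surface ectoderm is a thin epithelium covering the whole embryo, with an outer periderm forming over a basal layer that will become the epidermis. Trp63 encodes p63, the transcription factor that commits this epithelium to a stratified fate. Keratins form filaments as pairs of an acidic and a basic chain: Krt8 with Krt18 in simple epithelia, and Krt5 with Krt14 in the basal layer of stratifying epithelia. During normal development the ectoderm first makes Krt8 and Krt18 and later turns on Krt5 and Krt14. Krt8, Krt18 and Krt19 are also made in gut, notochord, mesothelium and other simple epithelia, so in a whole piece of embryo they do not mark the ectoderm alone.

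Depth ranged from 34883821 to 43444905 reads in listed genes per library, and the 10 genes had between 51 reads (Krt14) and 1441 reads (Krt5) in a library. Ednrb itself stood at 26.2 to 41.8 FPKM (a read level per length of gene, scaled to each library's total) in the WT libraries and at 1.59 to 4.80 FPKM in the Ednrb-/- libraries, with no overlap. In 3 libraries, replicate 3 of each Ednrb-/- group and WT caudal replicate 2, Xist and the Y-linked Ddx3y were both at 5 FPKM or more. Ddx3y reached that level in 2 WT trunk, 3 Ednrb-/- trunk, 3 WT caudal and 4 Ednrb-/- caudal libraries. WT caudal replicate 4 stood apart from its group in tailbud genes, with Brachyury (T) at 2.75 FPKM against 7.01 to 10.6 FPKM in the other WT caudal libraries and Cdx2 listed at 0. Calls of the 10 genes that changed without any of these 4 libraries are named as such below. Other genes named below were not examined without these libraries. All 10 genes passed the filter for testing, at least 0.5 FPKM in at least 4 libraries. Grhl2 passed through 10 libraries, and the other 9 genes reached that level in all 16.

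In the caudal region the genes moved in opposing directions with genotype. Krt8, Krt18, Krt19, Esrp1 and Grhl2 were higher in Ednrb-/- than in WT, and Krt5, Krt14 and Tfap2a were lower. These are 5 higher and 3 lower of 10, against 21.7% of all 17205 genes tested that were called higher and 19.9% called lower. In the trunk 2 were higher (Krt8 and Krt18) and the same 3 were lower, against 12.2% and 13% of all genes. The median log2 difference of the 10 genes was 0.13 in the caudal region and 0.01 in the trunk, and that of all genes tested was 0.01 and 0.00. All differences are of log2(FPKM + 0.5), which understates the change of low genes, and were tested with limma at a Benjamini-Hochberg adjusted p under 0.05 over all genes.

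**Figure D1:**
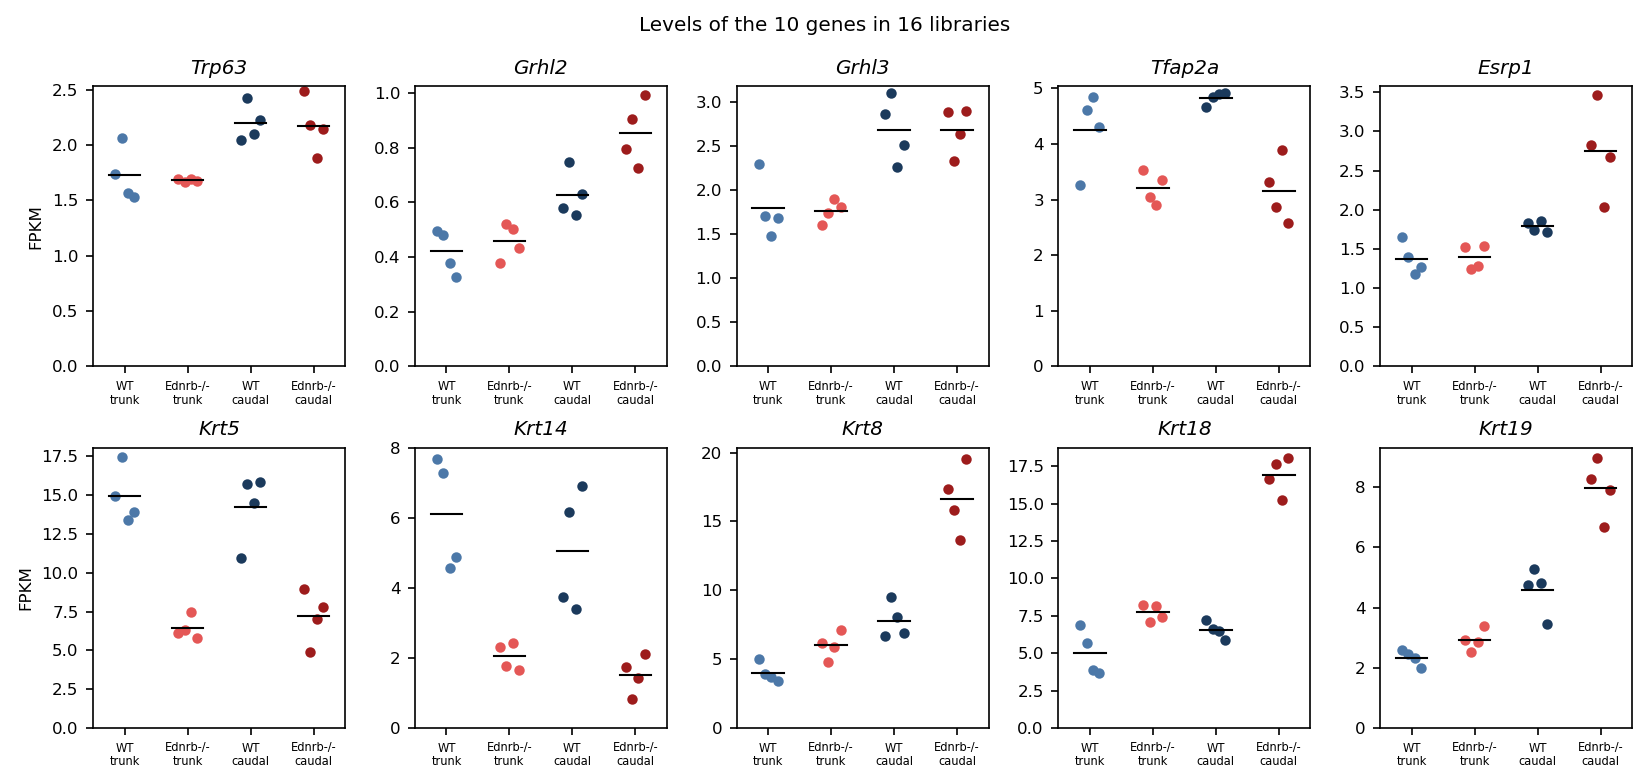
FPKM (vertical axis, from 0, a separate scale for each gene) of the 10 genes in each of the 16 libraries (points), by group (horizontal axis), with the group mean as a bar. Krt5 and Krt14 lie lower in both Ednrb-/- groups than in both WT groups, Krt8 and Krt18 lie highest in the Ednrb-/- caudal libraries, and the genotypes overlap within each region for Trp63 and Grhl3.

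The 5 regulators lie apart in the genome, each a protein-coding gene. On mm39, Trp63 spans 25502513 to 25710852 on chromosome 16 and Grhl2 37233280 to 37363813 on chromosome 15, both on the plus strand. On the minus strand, Grhl3 spans 135269199 to 135300941 and Esrp1 11331933 to 11386783 on chromosome 4, and Tfap2a 40868778 to 40891852 on chromosome 13. Trp63 did not pass between genotypes in either region. Its FPKM in the WT trunk libraries was 1.74, 2.07, 1.56 and 1.53, and in the Ednrb-/- trunk libraries 1.69, 1.67, 1.69 and 1.68. In the caudal region it was 2.05, 2.42, 2.10 and 2.23 in WT and 2.49, 2.18, 1.88 and 2.15 in Ednrb-/-. The genotypes overlapped in each region. The log2 difference between genotypes was -0.02 in the caudal region (95% interval -0.19 to 0.16, adjusted p = 0.895) and -0.02 in the trunk (-0.20 to 0.16, adjusted p = 0.877). These intervals do not reach the size of any genotype difference called for the keratins below.

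Grhl3, a grainyhead-like factor of the surface ectoderm needed for neural tube closure and for the skin barrier, did not pass between genotypes either. It averaged 2.68 FPKM ± 0.37 (SD, n = 4) in WT caudal and 2.68 ± 0.26 in Ednrb-/- caudal libraries, and 1.79 ± 0.35 and 1.76 ± 0.13 in the trunk. Its log2 difference between genotypes was 0.00 in the caudal region (-0.22 to 0.23) and -0.01 in the trunk (-0.23 to 0.22), with adjusted p of 0.980 and 0.972.

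Grhl2, the related factor that maintains epithelial junction genes, was the lowest of the set. Caudal libraries held 0.580, 0.749, 0.555 and 0.631 FPKM in WT and 0.798, 0.907, 0.725 and 0.993 FPKM in Ednrb-/-, with 1 WT library above the lowest Ednrb-/- library. The log2 difference was 0.26 ± 0.10 (SE, adjusted p = 0.0487). That call was lost when any 1 of 6 of the 8 caudal libraries was left out, namely WT replicates 1, 3 and 4 and Ednrb-/- replicates 1, 2 and 4, with adjusted p between 0.0603 and 0.142. In the trunk the difference was 0.06 (-0.16 to 0.28, adjusted p = 0.709). Antisense non-coding genes overlap Grhl2, with up to 1.65 FPKM in a library, and whether counting used strand is not given.

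Tfap2a encodes AP-2 alpha, a factor of both surface ectoderm and neural crest, and it was lower in Ednrb-/-. Caudal WT libraries held 4.67, 4.85, 4.89 and 4.92 FPKM, and Ednrb-/- caudal libraries 3.32, 2.87, 3.89 and 2.58 FPKM, so every Ednrb-/- library was below every WT library. The log2 difference was -0.56 ± 0.11 (SE, adjusted p = 0.00103). In the trunk it was 3.25, 4.61, 4.84 and 4.30 FPKM in WT and 3.52, 3.04, 2.90 and 3.35 FPKM in Ednrb-/-. WT trunk replicate 1 lay among the Ednrb-/- libraries. The trunk difference was -0.35 ± 0.11 (SE, adjusted p = 0.0325), and it lost its call without any 1 of WT replicates 2, 3 and 4 or Ednrb-/- replicates 2, 3 and 4, with adjusted p between 0.0507 and 0.0955, and without the 3 libraries holding both Xist and Ddx3y (adjusted p = 0.0683). Of 6 neural crest genes listed, 4 were also lower in Ednrb-/- in the caudal region (Erbb3, Foxd3 and Sox10 among them) and 4 in the trunk (Erbb3, Tfap2b, Sox10 and Foxd3). Ets1 of the same list was higher in Ednrb-/- in both, by 0.19 (adjusted p = 0.0048) in the caudal region and 0.21 (adjusted p = 0.00535) in the trunk. Among all genes tested, 19.9% were called lower in the caudal region and 13% in the trunk, and 21.7% and 12.2% higher. The part of neural crest in the Tfap2a difference was not tested. Antisense genes at Tfap2a reached up to 0.974 FPKM in a library.

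Esrp1 makes epithelial splice forms of many transcripts. It was at 1.83, 1.74, 1.86 and 1.71 FPKM in WT caudal and at 2.83, 3.47, 2.04 and 2.68 FPKM in Ednrb-/- caudal libraries, with no overlap. The log2 difference was 0.49 ± 0.11 (SE, adjusted p = 0.00300). In the trunk the means were 1.37 ± 0.21 and 1.40 ± 0.15 FPKM, a log2 difference of 0.02 (-0.22 to 0.27, adjusted p = 0.914).

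The keratins of stratified epithelium fell in both regions. Krt5, the basic chain of the basal layer, stood at 15.0, 17.4, 13.4 and 13.9 FPKM in WT trunk and 6.12, 6.34, 7.44 and 5.82 FPKM in Ednrb-/- trunk libraries. In the caudal region it was 11.0, 15.7, 14.5 and 15.9 FPKM in WT and 8.96, 4.92, 7.03 and 7.81 FPKM in Ednrb-/-. Every Ednrb-/- library was below every WT library of its region. The WT mean was 2.32 times the Ednrb-/- mean in the trunk and 1.99 times in the caudal region, with log2 differences of -1.15 ± 0.15 (adjusted p = 0.000112) and -0.96 ± 0.15 (adjusted p = 0.000151).

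Krt14, the acidic partner of Krt5, moved more. It stood at 7.68, 7.29, 4.58 and 4.90 FPKM in WT trunk and 2.32, 1.79, 2.44 and 1.66 FPKM in Ednrb-/- trunk libraries. Caudal WT libraries held 3.73, 6.18, 3.41 and 6.92 FPKM, and Ednrb-/- caudal libraries 1.73, 0.821, 1.42 and 2.12 FPKM. The WT libraries spread widely, but the genotypes did not overlap in either region. The WT mean was 2.98 times the Ednrb-/- mean in the trunk and 3.32 times in the caudal region, with log2 differences of -1.35 ± 0.24 (adjusted p = 0.000948) and -1.45 ± 0.24 (adjusted p = 0.000231).

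The keratins of simple epithelium went the other way. Krt8, the basic chain of simple epithelia, was at 6.65, 9.50, 8.07 and 6.88 FPKM in WT caudal and at 17.4, 15.8, 13.7 and 19.6 FPKM in Ednrb-/- caudal libraries, a mean 2.14 times that of WT. In the trunk it was 5.01, 3.88, 3.71 and 3.42 FPKM in WT and 6.20, 4.78, 5.89 and 7.09 FPKM in Ednrb-/-, where the ratio of means was 1.49 and 1 WT library lay above the lowest Ednrb-/- library. The log2 differences were 1.05 ± 0.14 (adjusted p = 3.91e-05) and 0.53 ± 0.14 (adjusted p = 0.0119).

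Krt18, the partner of Krt8, rose most. Caudal WT libraries held 7.23, 6.59, 6.49 and 5.88 FPKM, and Ednrb-/- caudal libraries 16.7, 17.6, 15.3 and 18.0 FPKM, a mean 2.58 times that of WT. Trunk WT libraries held 6.88, 5.68, 3.89 and 3.71 FPKM, and Ednrb-/- trunk libraries 8.20, 7.11, 8.18 and 7.42 FPKM, a mean 1.53 times that of WT. The genotypes did not overlap in either region. The log2 differences were 1.30 ± 0.14 (adjusted p = 8.47e-06) and 0.61 ± 0.14 (adjusted p = 0.00514).

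Krt19, an acidic keratin of simple epithelia and periderm, was at 4.74, 5.29, 4.80 and 3.47 FPKM in WT caudal and 8.27, 8.97, 6.69 and 7.91 FPKM in Ednrb-/- caudal libraries. The groups did not overlap, the ratio of means was 1.74 and the log2 difference was 0.74 ± 0.12 (adjusted p = 0.00014). In the trunk the means were 2.34 ± 0.26 FPKM in WT and 2.93 ± 0.35 FPKM in Ednrb-/-. That difference of 0.27 (95% interval 0.03 to 0.52) did not pass the test (adjusted p = 0.0972).

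**Figure D2:**
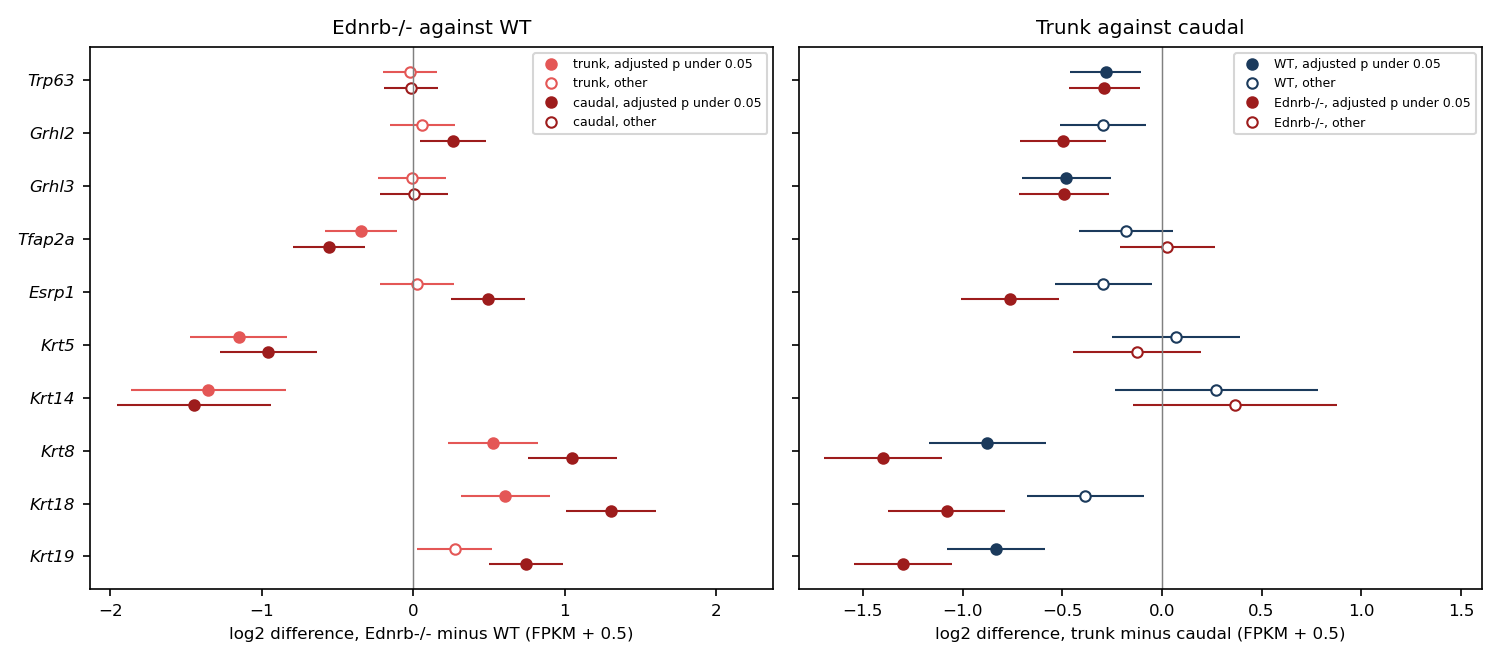
Log2 difference of FPKM + 0.5 (horizontal axis) with its 95% interval for each of the 10 genes (vertical axis), Ednrb-/- minus WT in each region on the left and trunk minus caudal in each genotype on the right. Filled points passed an adjusted p of 0.05. Krt5, Krt14 and Tfap2a lie left of 0 in both regions on the left, and Krt8 and Krt18 lie right of 0 in both. On the right, no gene with a filled point lies right of 0.

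The genotype difference was larger in the caudal region than in the trunk for Krt18 by this test. The difference of its 2 genotype effects, trunk minus caudal, was -0.70 ± 0.20 (SE, adjusted p = 0.0454), the only call among the 10 genes. Of all genes tested, 3.78% were called with a positive and 2.98% with a negative difference. Krt8 (-0.52 ± 0.20, adjusted p = 0.119), Krt19 (-0.47 ± 0.16, adjusted p = 0.0946) and Esrp1 (-0.47 ± 0.16, adjusted p = 0.0937) had differences of the same sign that did not pass. For Krt5 the difference was -0.20 (95% interval -0.65 to 0.26) and for Krt14 0.09 (-0.63 to 0.81). The Krt18 call was lost when any 1 of 13 of the 16 libraries was left out (adjusted p between 0.0586 and 0.0909), all but WT trunk replicates 3 and 4 and Ednrb-/- caudal replicate 3, and without the 3 libraries holding both Xist and Ddx3y. Without Ednrb-/- caudal replicate 3, Esrp1 (adjusted p = 0.0196) and Krt19 (adjusted p = 0.0487) passed as well.

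Ratios between genes of the same library do not depend on the scaling to a library total, and they are given as descriptions with no test. Krt5 and Krt14 together made up 65.0% ± 3.0 (SD, n = 4) of the summed FPKM of the 5 keratins in WT trunk, 33.8% ± 3.4 in Ednrb-/- trunk, 50.3% ± 6.0 in WT caudal and 17.3% ± 3.7 in Ednrb-/- caudal libraries. Each Ednrb-/- library was below each WT library, since the Ednrb-/- trunk libraries reached at most 36.8% and the lowest WT caudal library was at 44.1%. The summed FPKM of the 5 keratins was 32.4 ± 5.2 in WT trunk and 25.1 ± 1.8 in Ednrb-/- trunk, and 38.2 ± 4.1 in WT caudal and 50.2 ± 5.1 in Ednrb-/- caudal libraries. Krt5 over Trp63 was 8.67 ± 0.28 in WT trunk and 3.82 ± 0.41 in Ednrb-/- trunk, and 6.47 ± 0.79 in WT caudal and 3.31 ± 0.70 in Ednrb-/- caudal. The highest Ednrb-/- ratio, 4.39, was below the lowest WT ratio, 5.36.

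The same kind of ratio was taken against Epcam, a surface protein of most embryonic epithelia. Epcam itself was at 10.7 to 13.1 FPKM in Ednrb-/- caudal and 6.24 to 8.75 FPKM in WT caudal libraries, which lowers the Ednrb-/- ratios there. Krt5 over Epcam was 2.71 ± 0.10 in WT trunk, 1.06 ± 0.14 in Ednrb-/- trunk, 2.06 ± 0.44 in WT caudal and 0.605 ± 0.168 in Ednrb-/- caudal libraries. Krt18 over Epcam went from 0.908 ± 0.215 to 1.27 ± 0.12 in the trunk and from 0.943 ± 0.136 to 1.41 ± 0.04 in the caudal region. In the caudal region the lowest Ednrb-/- ratio (1.34) was above the highest WT ratio (1.04), while in the trunk WT replicate 1 (1.21) was above the lowest Ednrb-/- library (1.12). Krt18 over Krt8 was 1.24 ± 0.21 in WT trunk, 1.31 ± 0.19 in Ednrb-/- trunk, 0.860 ± 0.166 in WT caudal and 1.03 ± 0.10 in Ednrb-/- caudal libraries. It ran from 0.693 to 1.49 over the 16 libraries, and the genotypes overlapped in each region.

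**Figure D3:**
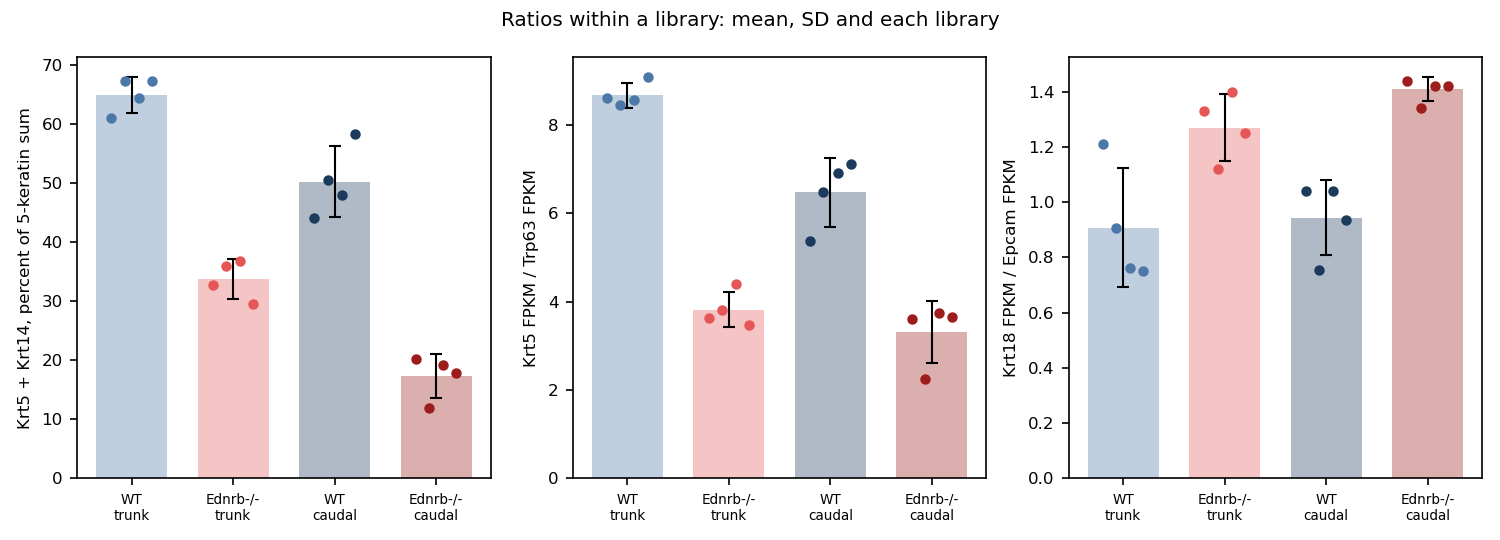
Ratios within each library (vertical axes, from 0) by group (horizontal axis): the percent of the 5-keratin sum in Krt5 and Krt14, Krt5 over Trp63, and Krt18 over Epcam. Bars are means, error bars are SD and points are the 4 libraries of a group. The Ednrb-/- groups are lower than the WT groups in the first and second panels and have the higher means in the third.

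The keratin genes lie in gene clusters, and their differences changed sign between close neighbours. On build mm39, Krt5 (chromosome 15, 101615505 to 101621333, minus strand) lies 284 kb from Krt8 (101905133 to 101912917, minus strand), with 10 other keratin genes between them, none at a level that could be tested. Krt18 (101936615 to 101940462, plus strand) lies 23.7 kb beyond Krt8. On chromosome 11, Krt19 (100031636 to 100039491, minus strand) lies 54.5 kb from Krt14 (100093988 to 100098374, minus strand). Krt9 lies between them and was called between genotypes in neither region. Of 53 keratin genes in the table, 10 reached the filter, so 5 besides the members were tested: Krt7, Krt9, Krt10, Krt15 and Krt17. In each region Krt15, a keratin of basal cells, was lower in Ednrb-/-, and none of the 5 was called higher. Krt15 ends 4.88 kb from Krt19, the keratin that was higher in the caudal region. Krt15 averaged 5.18 ± 0.73 FPKM in WT caudal and 1.67 ± 0.44 in Ednrb-/- caudal, and 6.75 ± 0.36 and 2.22 ± 0.16 in the trunk. Its log2 differences were -1.40 (adjusted p = 3.07e-06) and -1.42 (adjusted p = 8.44e-06). Krt17 was also called lower, but 0 of the 8 Ednrb-/- libraries reached 0.5 FPKM, so it was tested only through the WT libraries, where it is higher, and its values are a description. It averaged 0.575 ± 0.287 and 0.113 ± 0.133 FPKM in the caudal region and 1.07 ± 0.34 and 0.233 ± 0.146 FPKM in the trunk, WT first. How reads shared between near-identical keratins were counted is not stated, and the processed copy Krt8-ps reached at most 0.273 FPKM.

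**Figure D4:**
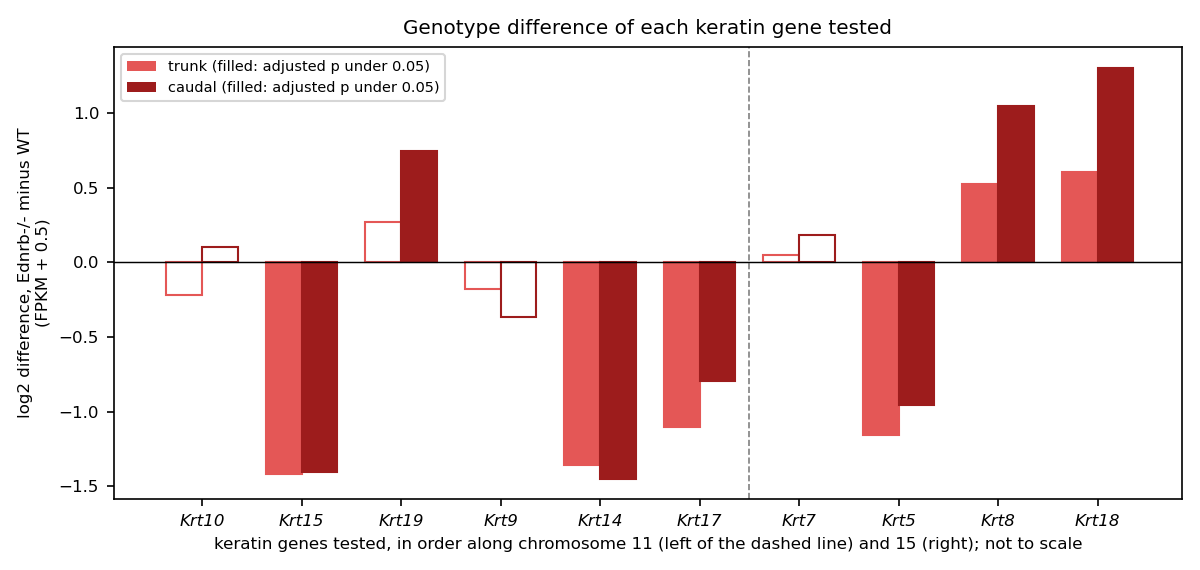
Log2 difference of FPKM + 0.5 between Ednrb-/- and WT (vertical axis) for the 10 keratin genes that were tested, in their order along chromosomes 11 and 15 (horizontal axis, not to scale), in trunk and caudal libraries. Filled bars passed an adjusted p of 0.05, and Krt17 was tested only through its WT libraries. Krt19 points up, its trunk bar not filled, between Krt15 and Krt14, which point down. Krt9, with no filled bar, stands between Krt19 and Krt14. Krt5 points down beside Krt8 and Krt18, which point up.

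Krt5 and Krt14 fell together, and Krt8 and Krt18 rose together. The 250 bases before a RefSeq start listed for each are shown, so that the opposing pairs can be read side by side. They are RefSeq sequences on build GRCm38.p6, each 5′ to 3′ on its gene's strand, with matches to the motifs searched in capitals. Krt5 is at chr15:101712906-101713155 (minus strand), Krt14 at chr11:100206031-100206280 (minus strand), Krt8 at chr15:102004343-102004592 (minus strand) and Krt18 at chr15:102027966-102028215 (plus strand).
Krt5: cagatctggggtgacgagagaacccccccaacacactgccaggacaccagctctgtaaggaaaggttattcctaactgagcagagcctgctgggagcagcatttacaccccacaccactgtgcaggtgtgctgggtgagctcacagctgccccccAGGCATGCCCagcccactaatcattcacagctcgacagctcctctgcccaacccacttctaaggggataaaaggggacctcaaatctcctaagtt
Krt14: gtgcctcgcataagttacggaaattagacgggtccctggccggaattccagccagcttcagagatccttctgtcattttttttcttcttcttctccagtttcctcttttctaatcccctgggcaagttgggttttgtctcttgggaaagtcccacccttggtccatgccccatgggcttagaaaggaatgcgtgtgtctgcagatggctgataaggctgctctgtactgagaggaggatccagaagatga
Krt8: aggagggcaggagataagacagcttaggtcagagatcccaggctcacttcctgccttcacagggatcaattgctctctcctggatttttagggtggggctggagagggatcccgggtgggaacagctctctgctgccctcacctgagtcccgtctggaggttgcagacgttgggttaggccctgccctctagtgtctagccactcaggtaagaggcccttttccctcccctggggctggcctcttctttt
Krt18: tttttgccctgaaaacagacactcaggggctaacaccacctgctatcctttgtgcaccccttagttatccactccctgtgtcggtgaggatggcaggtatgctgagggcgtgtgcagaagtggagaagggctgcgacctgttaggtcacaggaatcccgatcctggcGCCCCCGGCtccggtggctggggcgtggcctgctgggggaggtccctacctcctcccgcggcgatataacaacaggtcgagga

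RefSeq entries were matched for 6 of the 10 genes. They are on GRCm38.p6, while the gene positions above are on mm39. Whether a listed start is the 5′ end of the whole gene was not checked, so a window may lie inside its gene. Searched on both strands were the AP-2 motif GCCNNNGGC, the grainyhead motif AACCGGTT, the Sp1 motif GGGCGG, the AP-1 motif TGANTCA and the p53 family motif, and on the gene's strand alone TATAAA. No match overlapped another. The Krt18 window holds 1 AP-2 match, GCCCCCGGC, that begins 83 bases before the start, and 13.7% of 32817 promoter windows of this length hold such a match. The Krt5 window holds 1 p53 family motif, AGGCATGCCC, that begins 95 bases before the start, against 7.12% of all windows. The Krt14 and Krt8 windows hold none of the 6 motifs. Sp1 matches were found before Grhl3 and before both starts of Tfap2a, as in 32.7% of all windows. AACCGGTT is in 0.116% of windows, TGANTCA in 6.75% and TATAAA in 7.60%, and in none of the entries of these 6 genes. Such a match is a run of letters and not a measured binding site.

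Along the body axis the genes were lower in the trunk than in the caudal region or did not pass. In WT, 4 of 10 were lower in the trunk (Krt8, Krt19, Grhl3 and Trp63) and 0 were higher, against 8.35% of all genes lower and 9.69% higher. In Ednrb-/-, 7 were lower (Krt8, Krt18, Krt19, Grhl3, Trp63, Esrp1 and Grhl2) and 0 higher, against 18.9% and 17.3%. Of the 7, Grhl2 reached the filter only with the caudal libraries, where it is higher, so its call lends no weight to that count. The median log2 difference of the 10 genes was -0.29 in WT and -0.49 in Ednrb-/-, and that of all genes 0.00 and -0.01. The 2 region comparisons use different libraries from each other but share them with the genotype comparisons.

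Krt8 had 1.94 times the trunk mean in the caudal region of WT and 2.77 times in Ednrb-/-, with log2 differences, trunk minus caudal, of -0.88 ± 0.14 (adjusted p = 0.000501) and -1.40 ± 0.14 (adjusted p = 4.27e-06). Krt19 had 1.96 and 2.72 times the trunk mean in the caudal region, with differences of -0.83 ± 0.12 (adjusted p = 0.000171) and -1.30 ± 0.12 (adjusted p = 1.50e-06). The regions did not overlap for either gene in either genotype. Krt18 differed by -1.08 ± 0.14 in Ednrb-/- (adjusted p = 3.79e-05), and in WT its difference of -0.38 ± 0.14 did not pass (adjusted p = 0.068). Grhl3 differed by -0.48 ± 0.11 in WT (adjusted p = 0.00572) and -0.49 ± 0.11 in Ednrb-/- (adjusted p = 0.00225). Trp63 differed by -0.28 ± 0.08 (adjusted p = 0.028) and -0.29 ± 0.08 (adjusted p = 0.0136). The WT call of Trp63 was lost without any 1 of WT trunk replicates 3 and 4 and WT caudal replicates 2 and 4, with adjusted p between 0.0528 and 0.0905, and without the 3 libraries holding both Xist and Ddx3y (adjusted p = 0.095).

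Esrp1 and Grhl2 differed between the regions of Ednrb-/- embryos by -0.76 ± 0.11 (adjusted p = 0.000142) and -0.50 ± 0.10 (adjusted p = 0.0015). In WT the differences were -0.29 ± 0.11 (adjusted p = 0.0912) and -0.30 ± 0.10 (adjusted p = 0.0564). Of the 8 trunk libraries, 2 held Grhl2 at 0.5 FPKM or more, fewer than the filter asks, so its regional difference is a description. Krt5, Krt14 and Tfap2a did not pass between regions in either genotype. Krt5 differed by 0.07 in WT (95% interval -0.25 to 0.39) and by -0.12 in Ednrb-/- (-0.45 to 0.20). The Krt14 intervals were wider, from -0.24 to 0.78 in WT and from -0.14 to 0.88 in Ednrb-/-.

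Other genes of the surface ectoderm were read from lists named by function. Of 14 further ectoderm and periderm genes tested, 5 were higher and 2 lower in Ednrb-/- caudal libraries, and 1 was higher and 3 lower in the trunk. Of all genes tested, 21.7% were called higher and 19.9% lower in the caudal region, and 12.2% and 13% in the trunk. In the caudal region the 2 lower genes were the keratins Krt15 and Krt17, the latter tested only through its WT libraries, and among the higher were Ripk4, a kinase of epidermal differentiation (0.52, adjusted p = 0.00141), and Fermt1, an integrin adaptor of epithelia (0.45, adjusted p = 0.00208). In the trunk Krt15 and the desmosome-linked Perp (-0.33, adjusted p = 0.0079) were lower, with Krt17 as the third under the same limit, and P-cadherin, Cdh3 (0.31, adjusted p = 0.00522), was higher. The median of this list was 0.12 in the caudal region and 0.01 in the trunk.

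Genes of epithelial junctions moved with Krt8 and Krt18 in the caudal region. Of 18 tested, 12 were higher and 1 lower there, with a median of 0.52, and in the trunk 2 were higher and 1 lower, with a median of 0.14. Of the 12, 2 reached the filter only with Ednrb-/- libraries, where they are higher, so their calls lend no weight to that count. The shares over all genes were 21.7% higher and 19.9% lower in the caudal region, and 12.2% and 13% in the trunk. The claudin Cldn6 averaged 6.20 ± 0.86 FPKM in WT caudal and 15.7 ± 2.2 in Ednrb-/- caudal libraries (1.27, adjusted p = 1.30e-05). Cldn7 (0.97, adjusted p = 2.39e-05), Epcam (0.74, adjusted p = 3.37e-05) and E-cadherin, Cdh1 (0.55, adjusted p = 0.000259), were higher there too. In the trunk Cldn7 (0.55, adjusted p = 0.00407) and Cldn6 (0.51, adjusted p = 0.0172) were higher. Krt8 over Cdh1 was 1.45 ± 0.12 in WT caudal and 2.06 ± 0.15 in Ednrb-/- caudal libraries, and 1.22 ± 0.13 and 1.5 ± 0.18 in the trunk.

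The basal attachment of the ectoderm showed no common direction. Of 8 genes of hemidesmosomes and the skin basement membrane, 3 were higher and 3 lower in Ednrb-/- caudal libraries, with Dst (-0.34, adjusted p = 0.000701) among the lower and Frem1 (0.59, adjusted p = 0.000898) and Frem2 (0.36, adjusted p = 0.00634) among the higher. In the trunk Itga6 (0.18, adjusted p = 0.0197) was higher and the anchoring-fibril collagen Col7a1 (-0.47, adjusted p = 0.00348) was lower. For this list and those that follow, the shares over all genes were 21.7% higher and 19.9% lower in the caudal region. In the trunk these shares were 12.2% and 13%. Of 4 other epithelial regulators, Elf3 was called higher in both regions (0.31, adjusted p = 0.0495, and 0.38, adjusted p = 0.0279), though it reached the filter only with Ednrb-/- libraries, and Klf4 was lower in the trunk (-0.75, adjusted p = 0.00187). Of 6 mesenchymal regulators, Zeb1 (-0.13, adjusted p = 0.00841), Snai2 (-0.26, adjusted p = 0.0245) and Zeb2 (-0.18, adjusted p = 0.0476) were lower in Ednrb-/- caudal libraries, and 0 of 6 were called in the trunk. Of 7 genes of later, stratified epidermis, 4 stayed below 0.5 FPKM in every library, with Krtdap listed at 0 in all 16, Flg at no more than 0.00719 FPKM, Ivl at no more than 0.0986 FPKM and Krt1 at no more than 0.197 FPKM. The other 3 were tested. Lor, the cornified envelope protein loricrin, averaged 0.865 ± 0.142 FPKM in WT caudal and 0.367 ± 0.209 FPKM in Ednrb-/- caudal libraries and was lower there (-0.68, adjusted p = 0.00113). In the trunk it averaged 1.56 ± 0.10 and 1.33 ± 0.15 FPKM and did not pass (adjusted p = 0.393). Krt10, a keratin of suprabasal cells, had group means of 2.62 to 3.32 FPKM and Sbsn of 0.950 to 1.27 FPKM, and neither passed between genotypes in either region.

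Genes listed for mesothelium, and for notochord and tailbud, also differed between the groups. Of 4 mesothelial genes tested, 3 were higher in Ednrb-/- caudal libraries (Lrrn4, Upk3b and Wt1) and Upk1b was lower. Lrrn4 reached the filter only with Ednrb-/- libraries. Over all genes tested, 21.7% were called higher and 19.9% lower in the caudal region, and 12.2% and 13% in the trunk. The summed FPKM of the 5 listed was 2.63 to 6.21 in WT caudal, 5.75 to 7.33 in Ednrb-/- caudal, 4.98 to 10.5 in WT trunk and 11.2 to 13.7 in Ednrb-/- trunk libraries, and Msln was at no more than 0.106 FPKM. In WT trunk, Wt1 was at 5.4 and 5.54 FPKM in replicates 1 and 2, and at 2.63 and 2.79 FPKM in replicates 3 and 4. All 10 genes described here except Tfap2a were also higher in WT trunk replicates 1 and 2 than in 3 and 4, so this split was not particular to Krt18. Ednrb-/- trunk libraries held Wt1 at 6.44 to 7.84 FPKM. Of 9 notochord and tailbud genes, 7 were higher in Ednrb-/- caudal libraries, among them Shh (0.83, adjusted p = 4.18e-05) and Evx1 (0.73, adjusted p = 0.000133), and 1 in the trunk. Of the 7, 4 (Nkx1-2, Cdx2, Cdx4 and Fgf17) reached the filter only with Ednrb-/- libraries, where they are higher, so their calls lend no weight to that count. The summed FPKM of all 10 notochord and tailbud genes listed was 12.8 to 26.9 in WT caudal and 30.7 to 51.1 in Ednrb-/- caudal libraries. In the trunk it was 5.57 to 7.72 in WT and 8.15 to 9.59 in Ednrb-/- libraries.

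Of 10 genes listed for gut endoderm, 7 stayed below 0.5 FPKM in every library, which left 3 tested (Foxa1, Foxa2 and Sox17). Sox17 was called between genotypes in neither region. Whether these 3 were read from gut or from other tissue of the piece was not tested. The summed FPKM of the 10 was 3.71 to 4.42 in WT caudal, 5.37 to 7.44 in Ednrb-/- caudal, 2.89 to 3.53 in WT trunk and 2.71 to 3.44 in Ednrb-/- trunk libraries. In the caudal region Foxa2 (0.76, adjusted p = 0.000603) and Foxa1 (0.45, adjusted p = 0.0106) were higher in Ednrb-/-. In the trunk, where Krt8 and Krt18 were also higher, Foxa2 was higher (0.42, adjusted p = 0.0413) and Foxa1 lower (-0.48, adjusted p = 0.0132). The part of mesothelium, notochord, tailbud and gut in the rise of Krt8, Krt18 and Krt19 was not tested. Without WT caudal replicate 4, the library low in tailbud genes, 7 of 10 genes passed between genotypes in the caudal region, with only Grhl2 lost. Without the 3 libraries holding both Xist and Ddx3y, 8 passed in the caudal region and 4 in the trunk.

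Within groups, once each group's mean had been taken off, the 10 genes varied together only in part. Over the 45 pairs of genes the correlation of log2(FPKM + 0.5) across the 16 libraries ran from -0.66 to 0.77 with a median of 0.37. These correlations are descriptions, and all points share library depth and scaling. Krt5 with Krt14 had the highest (Pearson r = 0.77, Spearman rho = 0.73, and r = 0.66 without the 2 farthest libraries). Krt8 with Krt19 had r = 0.71 and rho = 0.67, and Krt8 with Krt18 r = 0.53 and rho = 0.49. Across the 2 keratin groups, the 6 pairs ran from r = -0.19 (Krt5 with Krt19, rho = -0.11) to r = 0.39 (Krt14 with Krt8, rho = 0.41), and 4 of the 6 were above 0. The lowest was Grhl2 with Tfap2a (r = -0.66, rho = -0.64).

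Among 11820 protein-coding genes with a mean of at least 1 FPKM, those whose within-group deviations were most like Trp63 were Ercc6 (r = 0.88, rho = 0.89), Eola1 (r = 0.80), Wdr11 (r = 0.79), Slc30a7 (r = 0.79) and Cyb561 (r = 0.77), over 16 libraries. Those most like Krt18 were Supt20 (r = 0.90, rho = 0.83), Soat1 (r = 0.89), Cd81 (r = 0.89), Gng12 (r = 0.88) and Spint2 (r = 0.87), a protease inhibitor of epithelia. Spint2 averaged 3.21 FPKM in WT caudal and 4.11 FPKM in Ednrb-/- caudal libraries, and Supt20 averaged 20.1 and 19.6 FPKM. Each set is the top 5 of all genes compared, so high r values follow in part from the search. Without the 2 farthest libraries r ran from 0.75 (Supt20) to 0.86 (Soat1) in the Krt18 set. In the Trp63 set it ran from 0.67 (Eola1) to 0.87 (Ercc6).

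The order of mean levels, in FPKM, shifted with group. In WT trunk libraries Krt5 was highest of the 10 (14.9 ± 1.8 FPKM), followed by Krt14 (6.11 ± 1.60) and Krt18 (5.04 ± 1.52). Krt14 over Krt18 within a library was 1.12, 1.28, 1.18 and 1.32 there, so Krt14 was above Krt18 in each of the 4. In Ednrb-/- caudal libraries Krt18 (16.9 ± 1.2) and Krt8 (16.6 ± 2.5) were highest, with Krt18 over Krt8 from 0.922 to 1.11 within a library. Krt19 (7.96 ± 0.95) and Krt5 (7.18 ± 1.70) followed, while Krt14 (1.52 ± 0.55) lay above Grhl2 (0.856 ± 0.118) and below Trp63 (2.17 ± 0.25). Grhl2 had the lowest mean in each of the 4 groups.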

How the data were processed

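TRIzol was used to extract the RNA, per the labels' protocols. The submitters' processing notes name fastp, HISAT2 2.0.5, featureCounts 1.5.0-p3 and the build mm39. The authors deposited FPKM in 1 table with 1 column per library. No source used here states the annotation release, whether strand was used or how reads shared by genes were handled. FPKM times gene length gave whole reads for 100% of values within 0.01 after division by 1 step per library, and these reads gave the depth, 34883821 to 43444905 per library. At the 51 to 1441 reads behind the 10 genes, counting error adds to the spread of the lowest.

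The members and the gene lists were chosen with earlier results of these data known. Log2(FPKM + 0.5) was fitted by limma 3.58.1 in R 4.3.3, with a mean for each of the 4 groups, a prior variance that followed the mean level, and 1 spread shared by all 16 libraries. The filter, 0.5 FPKM or more in 4 or more libraries, left 17205 genes, over which p-values were adjusted by Benjamini-Hochberg. Positive differences mean higher in Ednrb-/- or in the trunk. Intervals are 95% and two-sided. Named are all 10 members, up to 4 genes of each list by smallest adjusted p in the comparison described, and the 5 genes most like Trp63 and the 5 most like Krt18. Some genes of the lists are not reported here. The 5 other keratin genes tested and the promoter motifs were added after the data were seen. The procedure was checked on simulated data.

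Replicate numbers are shared by all groups. Of 24 pairs of same-numbered libraries from different groups, 1 had deviations correlated above 0.1 (range -0.084 to 0.109), so the numbers were not used as a block. Alternatives were other pseudocounts, filters and scalings, fits limited to the groups compared, a block, weights for each library, voom on the recovered reads, a sex term, and libraries left out. Figures were drawn with matplotlib 3.10.9.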

Additional observations from a re-analysis of the deposited data

Results flagged for a closer look

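The genotype difference of Krt18 was larger in the caudal region than in the trunk by a test that most alternatives did not pass. The difference of its 2 genotype effects, trunk minus caudal, was -0.70 on the log2(FPKM + 0.5) scale, with an adjusted p of 0.0454 in limma's interaction test. The call was lost in 21 of 29 alternatives, among them 13 of the 16 that left out 1 library, with adjusted p from 0.022 to 0.103 over all 29. Krt18 was higher in Ednrb-/- in 4 of 4 libraries in each region, above every WT library of that region. No library of the 40 sets of 4 (10 genes in 4 groups) lay far enough from the other 3 to pass Dixon's 95% critical value.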

How the results depend on the processing

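Over the alternatives run, 1048 of 1164 values for single genes kept their direction and their side of the threshold, 52 lost a call, 11 gained one and 53 changed sign. The sign changes were in differences near 0 that did not pass. The count of called genes between genotypes was 8 in the caudal region (7 to 8 over the alternatives) and 5 in the trunk (4 to 6). Between regions it was 4 in WT (3 to 7, the 7 with array weights) and 7 in Ednrb-/- (6 to 7). For the difference of the genotype effect the count was 1, and it was 0 with a pseudocount of 0.1, no filter, TPM, quantile normalization, a total summed over listed reads, array weights, a sex term, and without the 3 libraries holding both Xist and Ddx3y. Leaving out 1 library gave 0 to 3. Grhl2 in the caudal region lost its call in 14 of 21 alternatives, Tfap2a in the trunk in 8 of 22, Trp63 between WT regions in 8 of 22, and the Krt18 difference of genotype effects in 21 of 29. The cause was not tested.

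Sign changes by alternative were as follows. With TPM, Grhl3 was at -0.0823 between genotypes in the caudal region, and the differences of the genotype effect of Trp63 and Grhl3 were 0.0578 and 0.056. With quantile normalization, Trp63 was at 0.0885 (caudal) and 0.0415 (trunk) and Grhl3 at 0.055 (trunk) between genotypes, and Tfap2a at -0.0476 between Ednrb-/- regions. With the sum of listed reads, Grhl3 (caudal) was at -0.0534 and Esrp1 (trunk) at -0.00546 between genotypes, and the differences of the effect of Trp63 and Grhl3 were 0.0206 and 0.0172. With array weights Grhl3 (trunk) was at 0.0301, and the differences of the effect of Trp63 and Grhl3 were 0.00772 and 0.0178. With voom Grhl3 (caudal) was at -0.0637, and these differences were 0.0317 and 0.0225. With a sex term Grhl3 (trunk) was at 0.0438 and its difference of the effect at 0.0104. Without the 3 libraries holding both Xist and Ddx3y, Trp63 (caudal) was at 0.076 and the difference of the effect of Krt14 at -0.0964.

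With 1 library left out, the genotype difference of Trp63 ran from -0.071 to 0.0373 (caudal) and from -0.0638 to 0.0482 (trunk), that of Grhl3 from -0.0615 to 0.0655 (caudal) and from -0.0728 to 0.0926 (trunk) and that of Esrp1 (trunk) from -0.0291 to 0.0907. Krt5 between WT regions ran from -0.0465 to 0.125 and Tfap2a between Ednrb-/- regions from -0.0528 to 0.118. The difference of the genotype effect ran from -0.0597 to 0.0647 for Trp63, from -0.0768 to 0.0885 for Grhl3 and from -0.0969 to 0.245 for Krt14.

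A replicate block changed the count of calls to 7 in the caudal genotype comparison (Grhl2, adjusted p = 0.0562) and left the other counts at 5, 4, 7 and 1. The numbers do not pair the libraries by the check of their deviations. Other scalings moved the split of all called genes. Of genes called between genotypes in the caudal region, 52.1% were higher, against 30.6% with TPM, 38.0% with the sum of listed reads and 37.3% with voom. In the trunk 48.4% were higher, against 37.5% with the sum of listed reads and 37.1% with voom. Between Ednrb-/- regions 47.8% were higher, against 67.0% with TPM, and for the difference of the effect 55.9%, against 79.1% with TPM, 66.4% with quantile normalization and 72.6% with voom.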
